A study of Rattus norvegicus with 6 samples.

Results

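The 5 genes described here encode antioxidant enzymes: Hmox1 (ENSRNOG00000014117), Nqo1 (ENSRNOG00000012772), Sod1 (ENSRNOG00000002115), Sod2 (ENSRNOG00000019048) and Cat (ENSRNOG00000008364). They were selected by identifier as genes that respond to oxidative stress, and all 5 were found among the 19458 genes of the table. The table lists Ensembl identifiers without symbols, so each symbol follows the pairing given with the selection. RNA was measured in primary rat bone marrow mesenchymal stem cells, which are stromal cells able to form bone, cartilage and fat. The cells were cultured for 6 hours on titanium dioxide nanotubes of 100 nm (3 libraries) or on a smooth surface (3 libraries). All 6 libraries came from wild-type cells grown in the same serum-supplemented medium. The strain, sex and age of the animals, the material of the smooth surface and whether libraries of 1 surface came from separate animals or cultures are not stated in the labels. The p-values therefore reflect library-to-library spread, which may be technical.

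Cells meet reactive oxygen species with enzymes that act in sequence. The superoxide dismutases convert superoxide to hydrogen peroxide, copper-zinc Sod1 mainly in the cytosol and manganese Sod2 in the mitochondrial matrix. Catalase, the product of Cat, breaks hydrogen peroxide down to water and oxygen in peroxisomes. Hmox1, the inducible heme oxygenase, degrades heme to biliverdin, carbon monoxide and iron. Nqo1 reduces quinones to hydroquinones and so keeps them out of cycles that generate superoxide. Hmox1 and Nqo1 are well-known targets of the transcription factor Nrf2, which is held in check by Keap1 and binds antioxidant response elements when cells meet oxidants or electrophiles. Sod2 is also a known target of inflammatory signalling through NF-kB.

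The stretch just before the transcription start is shown for the 4 enzyme genes with an entry in the RefSeq promoter table of build GRCr8, because it is a place to look for the elements named above. Each line gives the 100 bases before the start, 5′ to 3′ on the strand of the gene, in lower case with motif matches in capitals.
Nqo1, chr19:52220268-52220367, minus strand: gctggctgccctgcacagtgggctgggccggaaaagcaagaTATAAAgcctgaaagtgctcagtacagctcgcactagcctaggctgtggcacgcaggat
Sod1, chr11:42942723-42942822, plus strand: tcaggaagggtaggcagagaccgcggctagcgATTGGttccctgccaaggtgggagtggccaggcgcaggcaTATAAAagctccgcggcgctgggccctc
Sod2, chr1:50050169-50050268, minus strand: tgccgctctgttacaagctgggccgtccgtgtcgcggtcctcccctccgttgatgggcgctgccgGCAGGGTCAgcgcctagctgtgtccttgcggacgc
Cat, chr3:110329527-110329626, minus strand: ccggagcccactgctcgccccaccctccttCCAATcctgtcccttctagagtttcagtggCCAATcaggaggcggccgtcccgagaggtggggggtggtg
The antioxidant response element was searched as TGACNNNGC on both strands, and matched in 1 of these 4 stretches, that of Sod2. The match there lay on the opposite strand, at bases -35 to -27 from the start, and read TGACCCTGC on that strand. Of all 33469 RefSeq stretches of this length, 4.64% held a match. The TATA box, searched as TATAAA on both strands, matched in Nqo1 at bases -59 to -54 and in Sod1 at bases -28 to -23. Both matches lay on the strand of the gene, while the share of all stretches with a match on either strand was 5.78%. The CCAAT box, searched as CCAAT on both strands, matched in Cat at bases -70 to -66 and -40 to -36. It matched in Sod1 on the opposite strand at bases -68 to -64, and in 17.1% of all stretches on either strand. The RefSeq gene record of Sod1 begins inside the stretch shown, upstream of the start that the promoter table uses. The matches did not overlap one another. They describe letters in these windows and are not evidence of bound factors. Bases further upstream were not searched, and Hmox1 had no stretch to search. A stretch without a match therefore does not show that its gene lacks an antioxidant response element.

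Each library held between 16299799 and 17624390 counted reads, and 16549 to 16753 genes had a value above 0. Values are FPKM, fragments per kilobase of gene model scaled to the library total, so levels of different genes can be set side by side. The gene models ran from 656 bases for Sod1 to 2539 bases for Cat, and an effect of length that remains in the levels was not tested. The order of genes with close values is limited by this as well as by counting error. The libraries did not sort by surface as wholes. Nanotube library 3 and smooth library 2 were the closest of all pairs, with 86 of 11865 tested genes at least 2-fold apart on the log2(FPKM + 1) scale, against 786 and 613 such genes between nanotube library 3 and nanotube libraries 1 and 2. In 67.7% of tested genes the value of smooth library 3 stood between those of the other smooth libraries. The log2 fold changes, and the counts of genes and ratios whose groups did not overlap, are therefore also given without nanotube library 3, while other values below cover all 6 libraries. That library was singled out for its closeness to a smooth library, so larger differences and less overlap without it are to be anticipated. Values without it are no independent support for a difference between the surfaces. Markers of stromal cells, leukocytes and other cell types could not be matched to identifiers, so the labelled cell type was not checked and the share of other cells was not tested. In bulk RNA, fewer cells expressing a gene and less of its RNA per cell cannot be told apart.

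The 5 enzymes were expressed in all 6 libraries and kept 1 order of level throughout: Nqo1, Sod2, Sod1, Hmox1 and Cat, from the most to the least abundant. Nqo1 averaged 968 ± 340 FPKM on nanotubes and 1442 ± 427 FPKM on smooth (SD, n = 3 libraries each), and its rank among the 19458 genes lay between 18 and 114. Sod2 averaged 326 ± 101 FPKM on nanotubes and 254 ± 40.8 FPKM on smooth, and Sod1 averaged 166 ± 38.2 FPKM on nanotubes and 176 ± 22.7 FPKM on smooth (SD, n = 3 each). Hmox1 averaged 77.8 ± 23.9 FPKM on nanotubes and 63.4 ± 14.6 FPKM on smooth, and Cat averaged 35.0 ± 5.96 FPKM on nanotubes and 43.2 ± 1.36 FPKM on smooth (SD, n = 3 each). Catalase was thus the least abundant of the set, and still lay above 81.6% of tested genes in mean level. Across all libraries the lowest value of each gene exceeded the highest value of the next, but some neighbours nearly met. Sod2 had 209 FPKM in nanotube library 3 and Sod1 had 206 FPKM there, with exact 95% counting intervals of 204 to 214 and 197 to 214 FPKM that overlapped. Hmox1 had 47.3 FPKM and Cat 44.7 FPKM in smooth library 1, with counting intervals of 44.7 to 50.1 and 42.7 to 46.8 FPKM that also overlapped. These intervals cover counting error only.

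**Figure D1:**
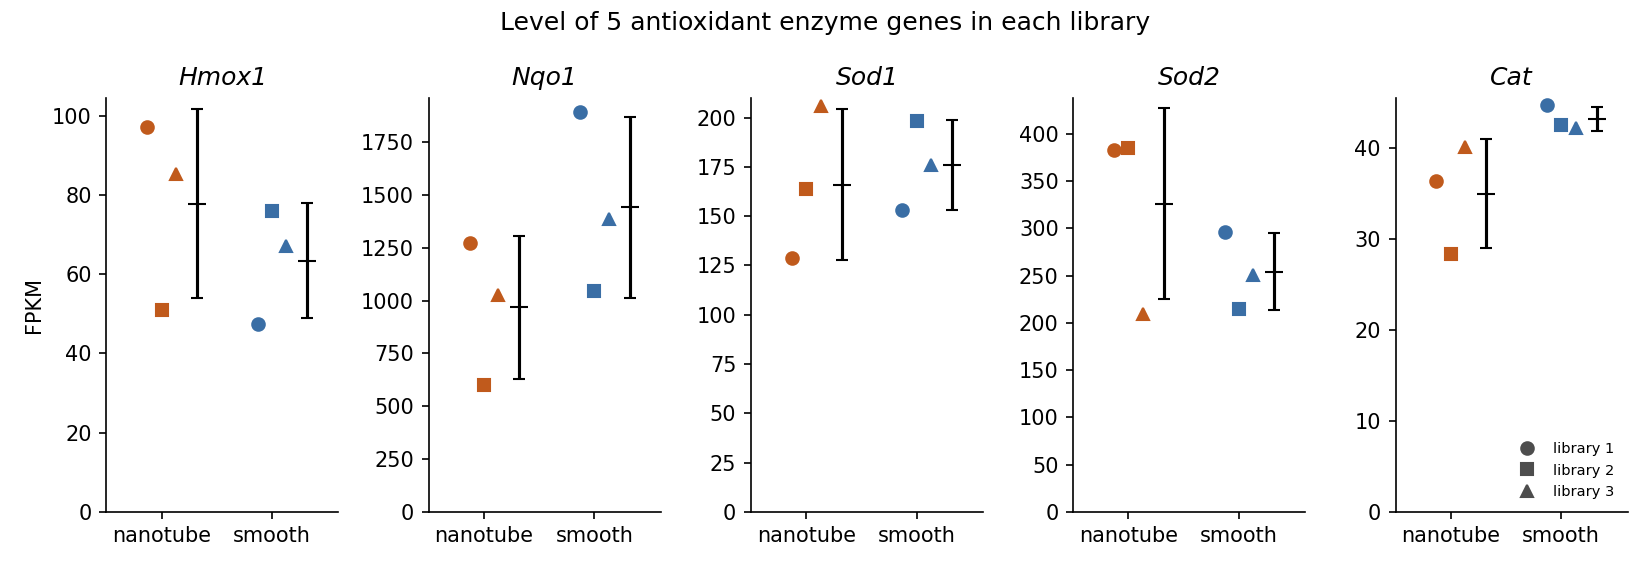
FPKM (y axis, linear, from 0) of the 5 enzyme genes in each nanotube and smooth library. Points are libraries, with the shape giving the library number, and the bar to the right of each group is the mean ± SD of 3 libraries. The groups overlap for Hmox1, Nqo1, Sod1 and Sod2, while for Cat all 3 nanotube values (28.4 to 40.1) lie below all 3 smooth values (42.2 to 44.7).

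The study compared the surfaces to find early expression responses to nanotubes, and none of these enzymes passed the test. Of the 5, 0 had an adjusted p below 0.05 and 0 an unadjusted p under 0.05 (limma on log2(FPKM + 1), Benjamini-Hochberg adjustment over all 11865 tested genes). Of all tested genes, 0% passed the adjusted threshold and 6.1% the unadjusted one (1.7% higher and 4.4% lower on nanotubes), and voom on whole reads likewise gave 0 of the 5 at an unadjusted p under 0.05. Higher genes made up 27.9% of those 724 genes (202 higher, 522 lower), and 39.9% after median-of-ratios scaling (369 higher, 556 lower). Mean log2 fold changes were above 0 for Hmox1 and Sod2 and below 0 for Nqo1, Sod1 and Cat (3 of 5, against 59.5% of tested genes), with a median of -0.1 over the 5, while the median of all tested genes was -0.04. All 5 passed the filter on low values. All 3 nanotube values lay apart from all 3 smooth values in 1 of the 5, Cat, and in 12.2% of tested genes, so the count in this set of 5 is no result about antioxidant enzymes. Without nanotube library 3 the groups did not overlap in 2 of the 5, Sod2 and Cat, and in 37.2% of tested genes.

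Hmox1, the stress-inducible heme oxygenase, did not separate the surfaces. It had 97.1, 51.0 and 85.3 FPKM in nanotube libraries 1, 2 and 3, against 47.3, 75.8 and 67.0 FPKM in smooth libraries 1, 2 and 3. The highest values were in nanotube libraries 1 and 3, but nanotube library 2 lay below smooth libraries 2 and 3, and the groups overlapped. The log2 fold change of nanotube over smooth was 0.27 (SE 0.28) with a 95% interval of -0.4 to 0.94 (limma, adjusted p = 0.866), on a scale of log2(FPKM + 1) that hardly alters genes this abundant. As a fold, the interval ran from 0.757 to 1.91. A two-sided exact permutation test of the 6 log2 values gave p = 0.5, where the smallest possible is 0.1. Without nanotube library 3 the log2 fold change was 0.18, and without nanotube library 2 it was 0.54 (unadjusted p = 0.0535, adjusted p = 0.976, limma). Without nanotube library 1 or smooth library 1 it was 0.08 or 0.07.

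Nqo1 was the enzyme with the widest spread. It had 1274, 603 and 1028 FPKM in nanotube libraries 1, 2 and 3, against 1895, 1045 and 1386 FPKM in smooth libraries 1, 2 and 3. Smooth library 1 was the highest and nanotube library 2 the lowest, 3.14-fold apart, and the groups overlapped because nanotube library 1 exceeded smooth library 2. The log2 fold change was -0.6 (SE 0.33) with a 95% interval of -1.4 to 0.2 (limma, adjusted p = 0.765), which as a fold ran from 0.38 to 1.15. The exact permutation test gave p = 0.2 (two-sided). Only 4.4% of tested genes were lower on nanotubes at an unadjusted p under 0.05, and Nqo1, at 0.118, was not among them, although 95.8% of tested genes had a smaller difference in size. Its log2 fold change was -0.68 without nanotube library 3, -0.29 without nanotube library 2 and -0.38 without smooth library 1. Nqo1 alone took 0.0952% to 0.201% of the reads of a nanotube library and 0.165% to 0.299% of those of a smooth library, so its counting error was small: the half-width of the 95% counting interval was at most 1.53% of the value in any library.

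The superoxide dismutases showed unlike patterns over the libraries. Sod1 had 129, 164 and 206 FPKM in nanotube libraries 1, 2 and 3, against 153, 198 and 176 FPKM in smooth libraries 1, 2 and 3. The nanotube libraries held both the highest and the lowest value and enclosed all smooth values. The log2 fold change of Sod1 was -0.1 (SE 0.19) with a 95% interval of -0.56 to 0.36 (limma, adjusted p = 0.93, exact permutation p = 0.7). It was -0.26 without nanotube library 3 and turned to 0.07 without nanotube library 1.

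Sod2 had 383, 385 and 209 FPKM in nanotube libraries 1, 2 and 3, against 296, 215 and 251 FPKM in smooth libraries 1, 2 and 3. Nanotube libraries 1 and 2 lay above every smooth library, and nanotube library 3 was the lowest of the 6. The log2 fold change over all libraries was 0.32 (SE 0.27) with a 95% interval of -0.32 to 0.95 (limma, adjusted p = 0.834, exact permutation p = 0.4, two-sided). Without nanotube library 3 the estimate was 0.61, with SE 0.16 (limma, unadjusted p = 0.0111, adjusted p = 0.16), and without either library numbered 3 it was 0.6 (unadjusted p = 0.0451, adjusted p = 0.56). Without nanotube library 3, 2207 of 11880 tested genes had an unadjusted p under 0.05, so Sod2 was 1 of many there. For Sod2 nanotube library 3 resembled smooth library 2, at 0.974 times its level (exact 95% counting interval 0.943 to 1.01).

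Cat, the catalase gene, had the tightest smooth values of the set. It had 36.4, 28.4 and 40.1 FPKM in nanotube libraries 1, 2 and 3, against 44.7, 42.6 and 42.2 FPKM in smooth libraries 1, 2 and 3. All nanotube values lay below all smooth values, with nanotube library 2 the lowest, a pattern that 7.49% of tested genes shared. The coefficient of variation was 17.0% among nanotube libraries and 3.15% among smooth libraries. In the smooth libraries the 95% counting interval had a half-width of 4.57% to 4.63%. That half-width is a wider measure than an SD, so it cannot be set directly against the coefficient of variation. The log2 fold change was -0.31 (SE 0.14) with a 95% interval of -0.64 to 0.02 (limma, unadjusted p = 0.0642, adjusted p = 0.753), which as a fold ran from 0.64 to 1.02. The exact permutation test gave p = 0.1, the smallest that 3 libraries against 3 allow. Without nanotube library 3 the log2 fold change was -0.41 (unadjusted p = 0.0216, adjusted p = 0.195, limma), and without nanotube library 2 it was -0.17 (unadjusted p = 0.171). In the fit without nanotube library 3, 2207 of 11880 tested genes had an unadjusted p under 0.05.

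**Figure D2:**
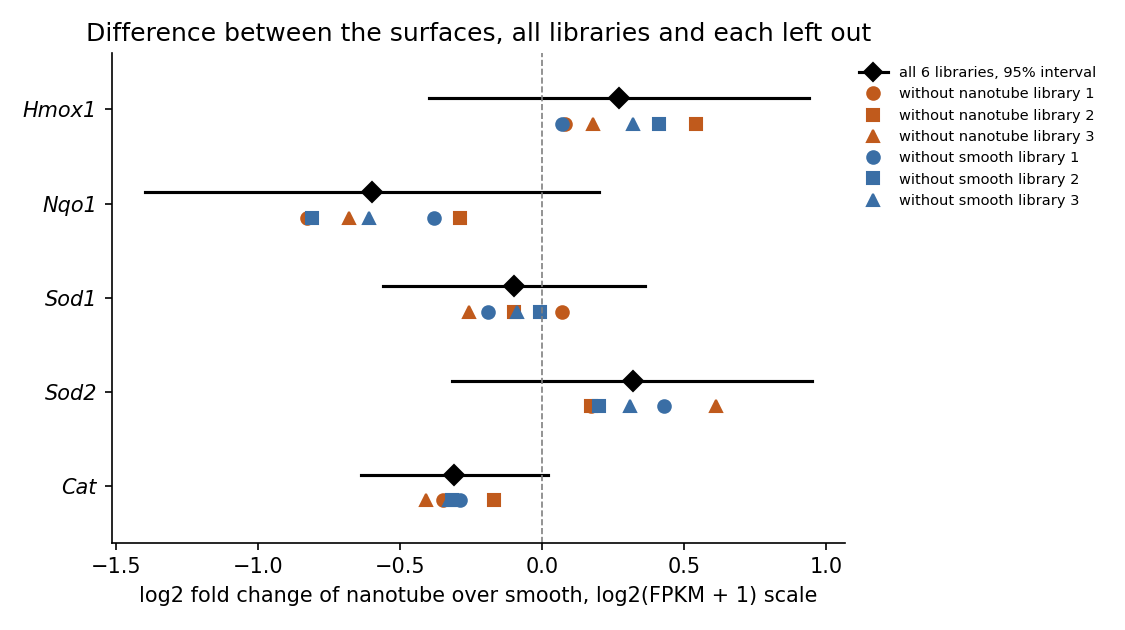
Log2 fold change of nanotube over smooth for each enzyme gene, on the log2(FPKM + 1) scale (x axis). Diamonds and lines give the limma estimate and 95% interval from all 6 libraries, and the coloured points give the estimate with 1 library left out. Each interval spans 0, from -1.4 to 0.2 for Nqo1 and from -0.64 to 0.02 for Cat, and for Sod1 the point without nanotube library 1 lies on the other side of 0, at 0.07.

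Set among all tested genes, the sizes of these differences varied. Ignoring sign, 76.0% of tested genes had a smaller log2 fold change than Hmox1, 81.7% a smaller one than Sod2, 81.2% a smaller one than Cat and 39.1% a smaller one than Sod1. The median size over all tested genes was 0.14.

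**Figure D3:**
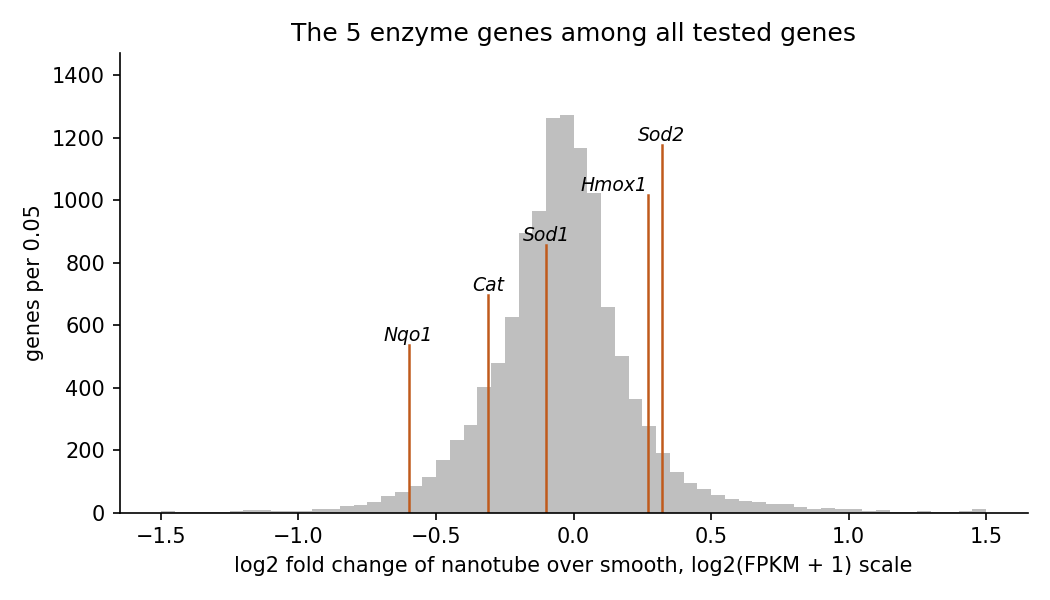
Number of tested genes (y axis, per 0.05 log2 units) by log2 fold change of nanotube over smooth (x axis, values beyond 1.5 in either direction drawn at the ends), with the 5 enzyme genes as vertical lines whose height has no meaning. From the 5th to the 95th percentile all tested genes lay between -0.46 and 0.36, and Nqo1, at -0.6, is the enzyme gene outside that range.

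The spread of these genes between libraries of 1 surface was clearly larger than counting error, except for Cat among smooth libraries. Summed over libraries, Hmox1 rested on 6323 nanotube and 5023 smooth reads and Nqo1 on 79423 nanotube and 114489 smooth reads. Sod1 rested on 5640 nanotube and 5828 smooth reads, Sod2 on 34981 nanotube and 26398 smooth reads, and Cat on 4601 nanotube and 5528 smooth reads. If counting were the only error, each of the 5 ratios would differ from 1, as with 0.81 for Cat (exact 95% counting interval 0.778 to 0.842) and 1.29 for Sod2 (1.27 to 1.31). Nanotube libraries differed by more than that among themselves: the highest nanotube value was 2.11 times the lowest for Nqo1, 1.9 times for Hmox1, 1.84 times for Sod2, 1.59 times for Sod1 and 1.41 times for Cat. Among smooth libraries these ranges were 1.81, 1.6, 1.38, 1.3 and 1.06 times for Nqo1, Hmox1, Sod2, Sod1 and Cat in that order, and for Cat the counting intervals of the 3 smooth libraries overlapped (42.7 to 46.8, 40.7 to 44.7 and 40.3 to 44.1 FPKM). The SD of Nqo1 over all 6 libraries was 0.55 on the log2 scale, above that of 92.3% of tested genes, and those of Hmox1 (0.4) and Sod2 (0.39) exceeded 84.7% and 83.6% of them. Sod1 and Cat were nearer to the middle, with SDs of 0.25 and 0.23 against a median of 0.21.

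The pair of libraries closest as wholes, nanotube library 3 and smooth library 2, was close in these enzymes too. Nanotube library 3 had 0.983 times the Nqo1, 1.04 times the Sod1 and 0.939 times the Cat level of smooth library 2. Hmox1 was the enzyme in which they differed most, at 1.13 times (exact 95% counting interval 1.06 to 1.2). For 4 of the 5 genes, all but Cat, smooth library 3 was intermediate between the other smooth libraries, as in 67.7% of all tested genes. For 2 of the 5, Hmox1 and Nqo1, nanotube library 3 was intermediate between the other nanotube libraries, as in 23.9% of tested genes. The part of these library positions in the values above was not tested beyond leaving each library out.

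Ratios between the enzymes within a library do not move with the library total. Nqo1 had 13.1, 11.8 and 12.1 times the FPKM of Hmox1 in nanotube libraries 1, 2 and 3, against 40.0, 13.8 and 20.7 times in smooth libraries 1, 2 and 3. The nanotube libraries were within 1.11-fold of each other in this ratio and all lay below the smooth libraries, which spanned 2.9-fold, with smooth library 1 far above the rest. The nearest libraries, smooth library 2 and nanotube library 1, were 1.05-fold apart, with a 95% counting interval of 0.99 to 1.12 that includes 1, so the groups were not separated beyond counting error. Hmox1 and Nqo1 thus went up and down together over the nanotube libraries, while in smooth library 1 the highest Nqo1 value of the study stood beside the lowest Hmox1 value. The mean log2 ratio was 3.62 ± 0.08 on nanotubes and 4.49 ± 0.78 on smooth (SD, n = 3 each). Hmox1 had 2.66, 1.8 and 2.13 times the FPKM of Cat on nanotubes, against 1.06, 1.78 and 1.59 times on smooth, which also did not overlap, but nanotube library 2 and smooth library 2 were only 1.01-fold apart (95% counting interval 0.915 to 1.12). The other 8 of the 10 pairs overlapped between the surfaces, among them Sod2 over Sod1, which was 2.97, 2.35 and 1.02 on nanotubes, against 1.94, 1.08 and 1.42 on smooth. Without nanotube library 3 the groups did not overlap in 5 of the 10 pairs, with Sod2 over Sod1, Sod2 over Cat and Nqo1 over Sod2 added. Ratios to all tested genes were not counted without that library, where the groups of 37.2% of single genes did not overlap. Sod2 over Cat was 10.5, 13.5 and 5.22 on nanotubes, against 6.62, 5.04 and 5.96 on smooth, and Nqo1 over Sod2 was 3.32, 1.57 and 4.91 on nanotubes, against 6.4, 4.87 and 5.52 on smooth. No test was made of these ratios, and the Nqo1 to Hmox1 pair was singled out after its values were seen. With all 6 libraries kept, the ratio of Nqo1 to each other tested gene with values above 0 in every library separated the surfaces for 9.57%. That of Hmox1 did so for 8.95%, and those of Sod1, Sod2 and Cat for 10.7%, 3.24% and 24.9%. These shares cannot be set against the 5 of the 10 pairs found without nanotube library 3.

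**Figure D4:**
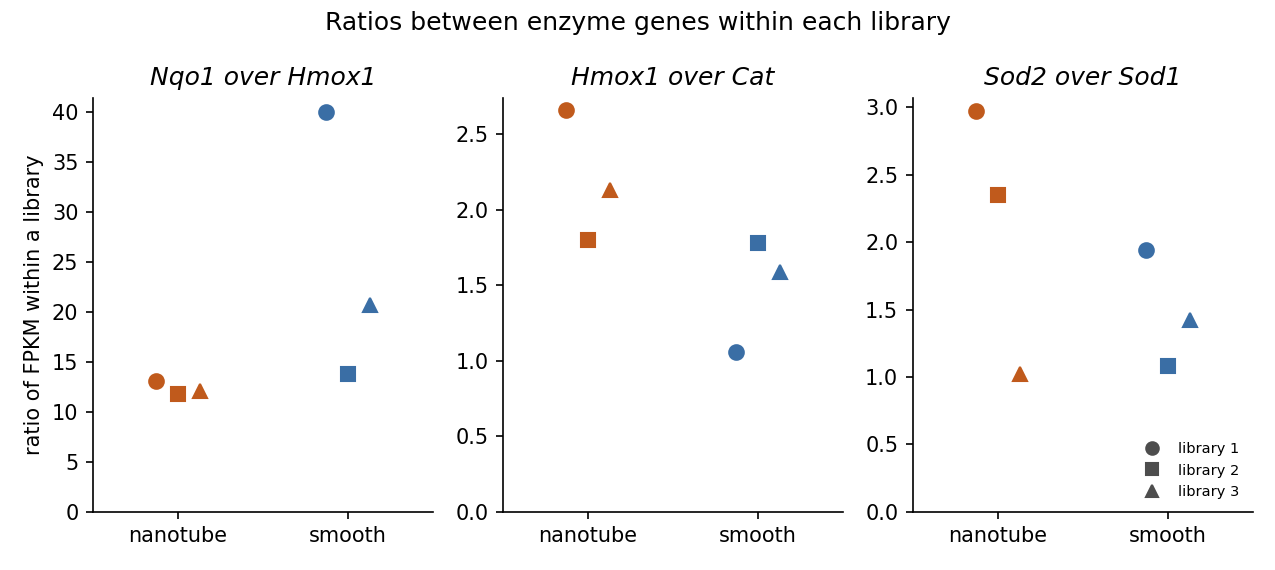
Ratio of FPKM between a pair of enzyme genes within each library (y axis, from 0), for nanotube and smooth libraries, with the shape giving the library number. The ratio of Nqo1 to Hmox1 was 11.8 to 13.1 in the nanotube libraries and 13.8 to 40.0 in the smooth libraries, while the groups overlap for Sod2 over Sod1 because of nanotube library 3 (1.02).

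Together the 5 genes took 0.313%, 0.201% and 0.242% of the reads of nanotube libraries 1, 2 and 3, against 0.389%, 0.245% and 0.303% of smooth libraries 1, 2 and 3. Nqo1 made up 47.5% to 66.9% of these reads on nanotubes and 67.3% to 76.9% on smooth, so these sums mostly follow Nqo1.

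Among the tested genes, the pattern most like that of Nqo1 was that of ENSRNOG00000047699, with 23.3, 10.9 and 19.2 FPKM in nanotube libraries 1, 2 and 3, against 32.4, 22.0 and 26.6 FPKM in smooth libraries 1, 2 and 3. Likeness was the root mean square difference of log2(FPKM + 1) over the 6 libraries after centring each gene on its own mean, here 0.09, where the median tested gene lay 0.55 from Nqo1. The pattern most like that of Hmox1 was that of ENSRNOG00000011411, with 6.16, 2.3 and 4.55 FPKM in nanotube libraries 1, 2 and 3, against 2.57, 4.7 and 3.79 FPKM in smooth libraries 1, 2 and 3, at a root mean square difference of 0.09 against a median of 0.41. At levels this low the added 1 FPKM narrows the differences of ENSRNOG00000011411 more than those of Hmox1. Both genes named here were picked as the closest of all tested genes over 6 libraries, and shared regulation was not tested. Symbols for these identifiers were not used here. Within the set, the smallest such difference was between Sod1 and Cat, at 0.27, and the largest between Nqo1 and Sod2, at 0.67. This measure does not scale the genes to equal spread, so genes that vary little come out close to one another. Sod1 and Cat had the smallest SDs of the set (0.25 and 0.23), and their closeness does not show that they rose and fell together.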

How the data were processed

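RNA of 6 libraries was sequenced after Trizol extraction and a NEBNext Ultra preparation, per the labels' protocols. The authors deposited 1 table of FPKM values with a column for each library. The titles carry the numbers 1 and 2, while the number 3 comes from the table's column names and is only a name. The submitters' processing notes name Bowtie 1.0.1, HISAT2 2.1.0 and HTSeq, with no roles, and the mouse builds mm10 and GRCm38, although all 19458 identifiers are rat Ensembl genes. Rat annotation, strand setting and filters are not given in those notes or labels, so reads of near-identical copies and of overlapping genes may be shared.

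The test was limma 3.58.1 (R 4.3.3, mean-variance trend) on log2(FPKM + 1) of the 11865 genes averaging 1 FPKM or more, as deposited, with p-values adjusted over all of them. Whole reads and library totals were worked out from the FPKM values. All 116748 values came out whole at a relative tolerance of 1e-09. Their sums per library were 99.74% to 99.77% of the totals. Counting intervals are exact 95% Poisson or binomial intervals and cover counting error only. Scripts were tested on simulated data. Deviations of same-numbered libraries from their group means correlated at 0.32, -0.21 and 0.06, so the numbers were not taken as pairs.

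None of the 19458 identifiers occurs in the reference gene table, so lists of pathway genes and cell type markers were not tested, and the names of the 5 genes come from their selection. The rule for named genes was these 5 and the most alike gene of the 2 with the widest range. Members and lists were chosen with earlier results of these data known. The TATA and CCAAT motifs, 6 of the 10 ratios, their counting intervals (normal approximation on the log scale) and the comparisons of single libraries were added after the values were seen.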

Additional observations from a re-analysis of the deposited data

How the results depend on the processing

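Over 16 alternative settings (pseudocounts, filters, scaling, no trend, replicate blocks, libraries left out, voom on whole reads), 79 of 80 estimates for the 5 enzymes kept their direction and none passed the adjusted threshold. The exception was Sod1, whose log2 fold change was -0.1 with all libraries and 0.07 without nanotube library 1. The cause was not tested. The filters, the fit without a trend and the block on all 6 libraries cannot change an estimate, and the pseudocounts and voom hardly moved one. The count of 79 is therefore a weak measure of how stable the directions are. Only the fits that left libraries out or rescaled the values could readily change a direction. With 1 library left out, estimates ranged from 0.07 to 0.54 for Hmox1, -0.83 to -0.29 for Nqo1, -0.26 to 0.07 for Sod1, 0.17 to 0.61 for Sod2 and -0.41 to -0.17 for Cat. The count of genes changed between the surfaces was 0 to 1 in these fits (1 without nanotube library 3, no enzyme of the set) and 0 in every other setting. The replicate block on all 6 libraries moved the unadjusted p of Nqo1 to 0.00711 at an unchanged -0.6 (adjusted p = 0.703, limma), and the block on libraries 1 and 2 of each surface gave -0.68 (unadjusted p = 0.0178, adjusted p = 0.419). The block on libraries 1 and 2 also gave 0.6 for Sod2 (unadjusted p = 0.0318, adjusted p = 0.425) and -0.43 for Cat (unadjusted p = 0.0422, adjusted p = 0.435). In that block 1355 of 11878 tested genes had an unadjusted p under 0.05 (limma), so these enzymes were among many. In the block on all 6 libraries, 801 of 11865 did. Both blocks use the library numbers, which were not taken as pairs, and neither changed a call. Median-of-ratios scaling gave 0.32 for Hmox1, -0.54 for Nqo1, -0.04 for Sod1, 0.37 for Sod2 and -0.25 for Cat, and moved the median of all tested genes from -0.04 to 0.01. The counts of genes at an unadjusted p under 0.05 were 724 with all libraries and 235 to 2207 with 1 left out (76 to 514 higher, 159 to 1693 lower). Every enzyme had at least 1208 reads in every library, and counting error still limits the comparisons of close values (Sod2 with Sod1 in nanotube library 3, Hmox1 with Cat in smooth library 1, Cat among smooth libraries, and the Nqo1 to Hmox1 and Hmox1 to Cat ratios of the nearest libraries).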
